A study of Mus musculus with 15 samples.

Results

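The genes described here are the pyruvate dehydrogenase kinases Pdk1, Pdk2, Pdk3 and Pdk4, the pyruvate dehydrogenase phosphatase Pdp1, the complex subunits Pdha1, Pdhb and Dlat, and the mitochondrial pyruvate carrier subunits Mpc1 and Mpc2. They were chosen by symbol, and all 10 were found among the 55421 genes of the count tables, which were mapped to symbols by Ensembl identifier. The choice was made with earlier results of the same samples known, and the values that prompted it are not recorded. The adjusted p-values below therefore give the place of each gene in a test of the whole table and are not independent evidence for it.

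The RNA came from CD4+ T cells sorted out of the spleen or the mesenteric lymph nodes (mLN) of Rag2-/- recipients, 6 weeks after intraperitoneal transfer of naive CD4+CD25-CD44-CD62L+ T cells, which leads to colitis in these hosts. All donors were young adult C57BL/6 mice with PRKAA1fl/fl alleles of the AMPKα1 gene. WT donors carried no Cre, and KO donors carried CD4-Cre, which acts in all T cells that have passed through the CD4-expressing thymocyte stage. WT spleen, KO spleen and KO mLN have 4 samples each and WT mLN has 3, as the study dropped 1 WT mLN sample for its quality. The Rag2-/- hosts lack their own T and B cells and keep myeloid cells, NK cells and erythroid cells. Per the study, the samples of a group came from separate mice of a single experiment, so p-values measure the spread between mice within it. For T cell receptor sequencing the study compared the spleen and mLN of each mouse. For the RNA samples, the sources used here do not state which spleen and mLN samples share a mouse. The tests between organs treat these samples as separate mice, unless the replicate number is named as a block. Calls between organs that change with the block therefore depend on this open point.

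Reads counted on genes ranged from 9363940 to 11283439 per sample (median 10545309), and 58.4% to 63.4% of the uniquely aligned reads of a sample lay on no gene. The targeted gene, Prkaa1, had 470 to 540 counts in WT and 194 to 243 in KO spleen, and 503 to 616 in WT and 216 to 360 in KO mLN, so the libraries matched their labels. Among KO samples Prkaa1 was higher in mLN than in spleen (log2 fold change 0.46, adjusted p = 0.0361 by edgeR's quasi-likelihood test). Of all genes 11.4% were called higher in that comparison. All 10 T cell markers were read in every sample, with a summed level of 7903 to 10539 counts per 1e6 reads on genes (CPM). In 4 libraries (WT spleen 2, KO spleen 1, KO mLN 2 and KO mLN 3) a read was found on 24232 to 28591 genes, more than in the others. In WT spleen 3, WT spleen 4 and WT mLN 4 the 6 erythroid markers summed to 1888, 910 and 798 CPM, against at most 120 CPM elsewhere. In bulk samples, fewer cells of a type and less RNA per cell cannot be told apart.

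Pyruvate made by glycolysis enters the mitochondrial matrix through the carrier formed by Mpc1 and Mpc2. There the pyruvate dehydrogenase complex turns it into acetyl-CoA, which feeds the tricarboxylic acid cycle and, by way of citrate, lipid synthesis. The kinases Pdk1 to Pdk4 phosphorylate the alpha subunit Pdha1 and switch the complex off, and the phosphatases Pdp1 and Pdp2 remove the phosphate and switch it on. Activated T cells are known for turning much of their pyruvate into lactate, with less of it passing through this complex. AMPK is a sensor of cellular energy that favours the oxidation of fuels.

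The start regions of the kinase genes and of Dlat are shown because the kinases differed most in level among themselves and Dlat had the smallest p-value of the genes tested. Each line gives the 250 bases before the RefSeq transcript start on GRCm38.p6, from 5′ to 3′ on the strand of the gene, and capitals mark CpG dinucleotides. The windows are chr2:71872974-71873223 on the plus strand for Pdk1 and, on the minus strand, chr11:95041372-95041621 for Pdk2, chrX:93832151-93832400 for Pdk3, chr6:5496279-5496528 for Pdk4 and chr9:50659781-50660030 for Dlat.
Pdk1: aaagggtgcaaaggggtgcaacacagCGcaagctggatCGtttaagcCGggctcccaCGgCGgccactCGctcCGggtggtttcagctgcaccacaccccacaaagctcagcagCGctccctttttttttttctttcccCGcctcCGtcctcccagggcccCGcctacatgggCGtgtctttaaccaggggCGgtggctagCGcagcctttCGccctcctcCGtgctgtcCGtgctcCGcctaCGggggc
Pdk2: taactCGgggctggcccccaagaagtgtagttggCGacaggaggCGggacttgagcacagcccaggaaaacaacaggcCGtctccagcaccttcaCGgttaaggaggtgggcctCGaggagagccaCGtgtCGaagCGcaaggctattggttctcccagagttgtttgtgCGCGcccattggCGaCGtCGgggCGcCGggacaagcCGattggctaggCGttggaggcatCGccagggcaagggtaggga
Pdk3: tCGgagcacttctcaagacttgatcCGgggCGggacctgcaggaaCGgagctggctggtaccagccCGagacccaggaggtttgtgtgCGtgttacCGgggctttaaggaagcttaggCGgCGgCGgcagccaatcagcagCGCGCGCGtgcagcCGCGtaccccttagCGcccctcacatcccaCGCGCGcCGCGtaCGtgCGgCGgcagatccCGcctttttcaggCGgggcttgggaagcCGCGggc
Pdk4: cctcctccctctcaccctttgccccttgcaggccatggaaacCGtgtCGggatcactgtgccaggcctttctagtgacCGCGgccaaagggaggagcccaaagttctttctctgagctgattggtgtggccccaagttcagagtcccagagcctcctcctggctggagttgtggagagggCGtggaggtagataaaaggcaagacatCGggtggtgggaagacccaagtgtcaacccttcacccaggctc
Dlat: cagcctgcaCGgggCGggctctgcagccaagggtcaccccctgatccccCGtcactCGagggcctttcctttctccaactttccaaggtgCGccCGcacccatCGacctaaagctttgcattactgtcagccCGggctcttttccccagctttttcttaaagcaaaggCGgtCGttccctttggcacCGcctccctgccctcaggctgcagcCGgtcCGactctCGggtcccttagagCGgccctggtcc
These windows held 19 CpG for Pdk1, 19 for Pdk2, 29 for Pdk3, 6 for Pdk4 and 15 for Dlat, and the median over all 32851 windows of this length was 6. Windows of 9 of the 10 genes were given, without Pdp1, and the first window of each gene is described here. The CpG number of these first windows ranged from 6 in Pdk4 to 32 in Mpc1. A further window was given for Pdk1 (2 CpG), Pdk2 (12) and Mpc1 (18). Searched on both strands, the hypoxia response core ACGTG was found in the windows of Pdk2, Pdk3 and Pdhb and in 16.6% of all windows. In Pdk2 this match lay inside the E-box CACGTG, which 6.02% of all windows hold. The forkhead motif TGTTTAC (3.17% of all windows) and the estrogen-related receptor motif TCAAGGTCA (0.387%) were not found in the 9 windows. A match is a description of the letters and not a bound site.

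Levels of different genes were compared per kilobase of merged exons. Over the 15 samples the order was Pdha1 (45.7 ± 3.53 CPM per kilobase, mean ± SD, n = 15), Pdhb (42.1 ± 2.91), Pdk3 (20.3 ± 2.27), Mpc1 (15.8 ± 2.13), Dlat (13.8 ± 1.90), Mpc2 (9.69 ± 0.81), Pdk1 (8.73 ± 2.27), Pdp1 (4.98 ± 1.11) and Pdk2 (1.49 ± 0.53). The ranges of Pdha1 and Pdhb overlapped, and so did those of each neighbouring pair from Pdk3 to Pdp1. The order of Pdha1 and Pdhb, of Pdk3 and Mpc1, of Mpc1 and Dlat and of Mpc2 and Pdk1 changed between samples, whereas Dlat lay above Mpc2, and Pdk1 above Pdp1, in all 15. The range of Pdk3 lay wholly above that of Dlat, and the range of Mpc1 above that of Mpc2. The 2 subunits Pdha1 and Pdhb lay above Pdk3 in every sample, and Pdk2 lay below Pdp1 in every sample. Lengths matter here: with the length of the principal transcript in place of merged exons, Pdhb came to 107 and Mpc2 to 69.4 CPM per kilobase, and Mpc2 moved from place 6 to place 2, while Pdk3, Pdk1 and Pdk2 kept their order.

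Pdk4, the starvation-induced kinase of muscle and liver, was at or near 0. It had no read in 13 of the 15 samples, and 2 and 3 counts in KO mLN replicates 2 and 3. A count of 0 in a library allows up to 3 counts, so no group rose above this floor, and Pdk4 did not enter any test. Both samples with a Pdk4 read were among the 4 libraries with the most genes read. The Pdk4 gene lies on chr6:5483351-5496309.

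**Figure D1:**
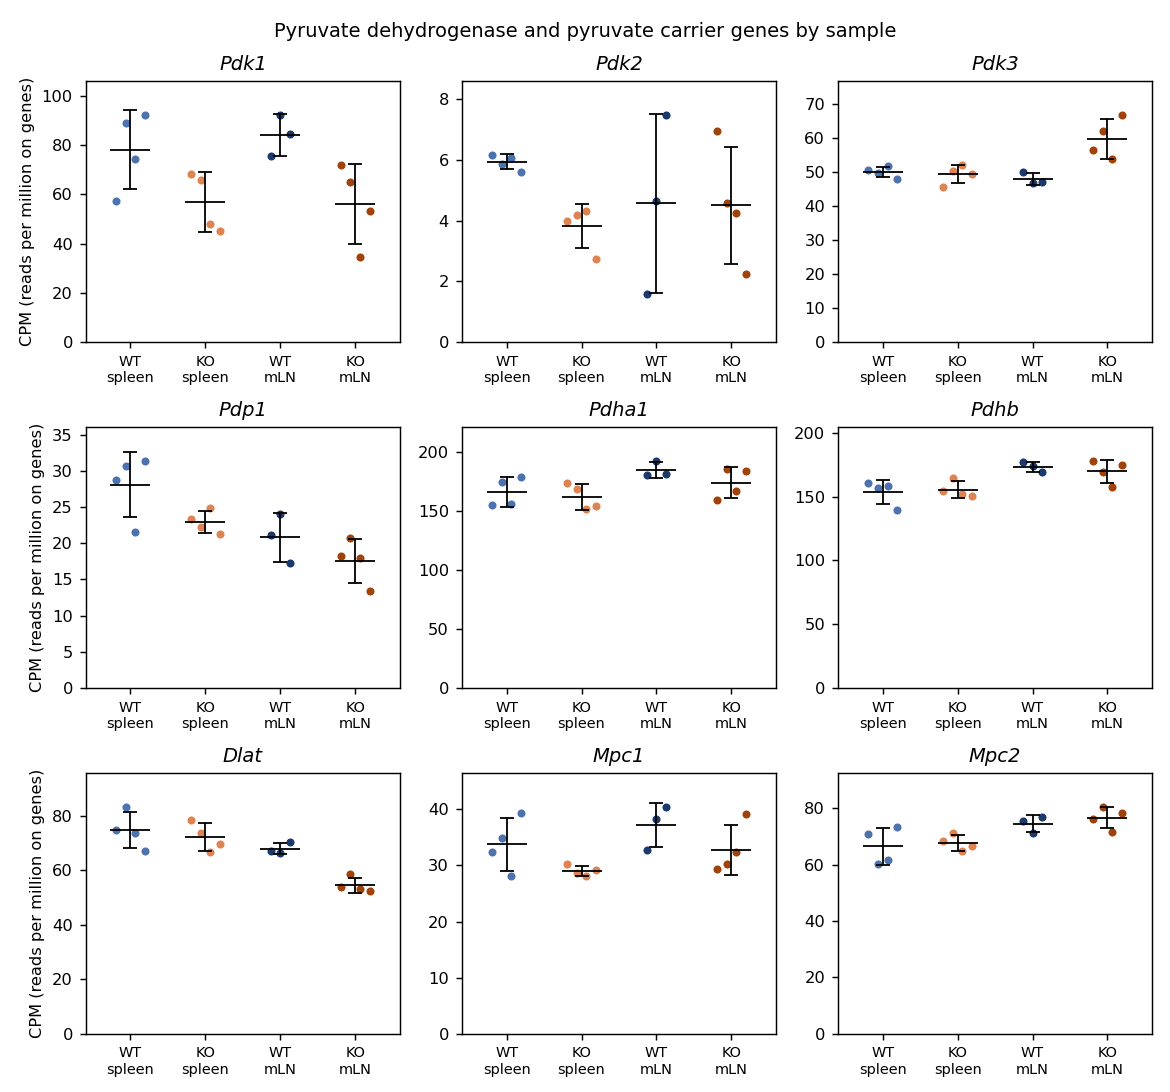
Levels of 9 genes by sample in CPM, with a point per sample, and the mean and SD of each group in black (n = 4, for WT mLN n = 3). Pdk4 is left out because it had at most 3 counts. In KO mLN all 4 points of Pdk3 lie above, and all 4 points of Dlat lie below, the points of the other 11 samples.

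Pdk1, a kinase gene known as a target of hypoxia-inducible factor (chr2:71873224-71903858), had the largest mean fold change of the 9 tested genes between KO and WT. In spleen its level was 57.5, 89.0, 74.3 and 92.3 CPM in WT and 68.5, 66.0, 48.1 and 45.2 CPM in KO. The lowest WT sample lay inside the KO range, so the groups overlapped. In mLN Pdk1 stood at 75.5, 92.3 and 84.7 CPM in WT and 71.98, 65.1, 34.7 and 53.2 CPM in KO, so the KO values were all below the WT values, a separation that 14.4% of all genes tested in mLN showed in one direction or the other. The log2 fold change of KO against WT was −0.45 (SE 0.16) in spleen and −0.59 (SE 0.21) in mLN, with 95% intervals of −0.81 to −0.09 and −1.04 to −0.13. By edgeR's quasi-likelihood test with Benjamini-Hochberg adjustment over all genes, Pdk1 did not pass in either organ (adjusted p = 0.163 in spleen and 0.212 in mLN).

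Without the WT spleen samples with high erythroid markers the spleen log2 fold change was −0.34 (adjusted p = 0.406), and without a filter on low counts Pdk1 passed in both organs (adjusted p = 0.0016 in spleen and 0.000755 in mLN, with log2 fold changes of −0.43 and −0.59, the cause was not tested). Between organs the Pdk1 levels did not pass the test, with log2 fold changes of mLN against spleen of 0.15 in WT (95% interval −0.19 to 0.48) and −0.01 in KO (−0.46 to 0.45). Of the 15438 genes tested over all 15 samples, those with the pattern most like Pdk1 were Pes1 (Pearson r = 0.94), Ano10 (0.90), Rad18 (0.88), Tfb2m (0.88) and Mpg (0.88). These r are a description over 15 samples in 4 groups, and after removal of the group means they were 0.79 to 0.90.

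Pdk2, a widely expressed kinase of the complex, was low. In spleen the Pdk2 level was 6.18, 5.87, 6.07 and 5.62 CPM in WT and 3.99, 4.20, 4.33 and 2.75 CPM in KO, on 31 to 64 counts a sample. The groups did not overlap, as for 12.0% of all genes tested in spleen. Its log2 fold change was −0.62 (SE 0.18, 95% interval −1.03 to −0.22), the largest of the 9 genes in spleen, and it did not pass after adjustment by edgeR (adjusted p = 0.103). In mLN Pdk2 ranged from 1.57 to 7.47 CPM in WT and from 2.23 to 6.94 CPM in KO. That spread gives an interval of −1.14 to 1.10 for the log2 fold change, so a difference of the size seen in spleen was not detectable in mLN. The Pdk2 gene lies on chr11:95026258-95041354.

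Pdk3, an X-linked kinase gene (chrX:93764607-93832201), was the most abundant kinase and was steady except in KO mLN. It was 50.6, 49.6, 51.7 and 48.0 CPM in WT spleen, 45.6, 50.2, 51.9 and 49.5 CPM in KO spleen and 50.02, 46.8 and 47.0 CPM in WT mLN. In the KO mLN samples Pdk3 stood at 56.4, 62.2, 53.7 and 66.7 CPM. All 4 KO mLN samples lay above the other 11, as for 1.7% of the 15438 genes tested over all samples. This split was not among the planned comparisons, so the share is a description only. Pdk3 was 1.21-fold higher in mLN than in spleen among KO samples (log2 fold change 0.28, SE 0.09, adjusted p = 0.048 by edgeR). This call was near the limit: it was lost in 7 of 8 fits that left out 1 sample (adjusted p up to 0.140), without the filter on low counts (0.146), and without the libraries with the most genes read (0.117). With the replicate number as a block it was also lost (adjusted p = 0.0599).

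Within mLN the log2 fold change of Pdk3 in KO against WT was 0.31 (SE 0.11, adjusted p = 0.232 by edgeR), and in spleen it was −0.004 (95% interval −0.17 to 0.16). The comparisons of KO mLN with WT mLN and with KO spleen share the 4 KO mLN samples. The difference between the organs in the KO effect, tested as a genotype by organ interaction, was 0.31 on the log2 scale (SE 0.13, adjusted p = 0.9998 by edgeR over 15438 genes). No gene passed that test by edgeR, where 652 genes (4.22%) had an unadjusted p under 0.05, and DESeq2 called 4 genes.

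**Figure D2:**
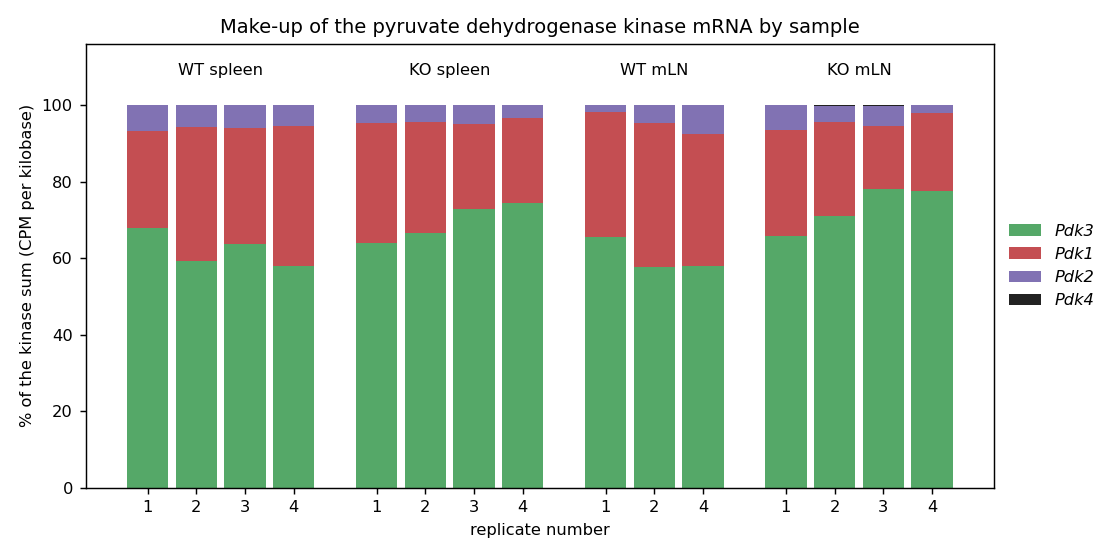
Make-up of the kinase mRNA in each of the 15 samples, as percent of the summed CPM per kilobase of the 4 kinases. Pdk3 makes up 57.9% to 78.1% of each bar, and Pdk4 is visible as a thin line in 2 KO mLN samples.

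Taken per kilobase, the kinases summed to 31.4 ± 1.63 CPM per kilobase in WT spleen (SD, n = 4), 27.8 ± 1.39 in KO spleen (n = 4), 31.0 ± 1.08 in WT mLN (n = 3) and 32.0 ± 3.45 in KO mLN (n = 4). Pdk1 made up 31.8% ± 5.07 of this sum in WT and 26.2% ± 4.73 in KO spleen, and 34.9% ± 2.47 in WT and 22.3% ± 4.82 in KO mLN. In mLN the shares did not overlap: Pdk1 took 32.7% to 37.5% in WT and 16.6% to 27.6% in KO. Pdk3 took 62.2% ± 4.53 in WT and 69.4% ± 4.98 in KO spleen, and 60.5% ± 4.46 in WT and 73.1% ± 5.83 in KO mLN, and its shares in mLN came close without meeting (at most 65.7% in WT and at least 65.8% in KO). These shares follow from the levels given above and were not tested.

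Pdp1, the calcium-stimulated phosphatase that switches the complex on (chr4:11958184-11966452), was 28.8, 30.6, 21.6 and 31.4 CPM in WT and 23.3, 22.3, 24.8 and 21.3 CPM in KO spleen. In mLN it was 21.2, 24.0 and 17.2 CPM in WT and 18.2, 20.7, 17.9 and 13.4 CPM in KO. The KO and WT ranges overlapped in both organs, and the KO mLN samples all lay below the KO spleen samples, a separation that 28.7% of all genes tested between the organs in KO showed. The log2 fold change of mLN against spleen was −0.39 (SE 0.16) in WT and −0.38 (SE 0.15) in KO, and neither passed (adjusted p = 0.115 and 0.0802 by edgeR). With the replicate number as a block Pdp1 was lower in WT mLN than in WT spleen (log2 fold change −0.49, adjusted p = 0.0229). KO against WT gave −0.28 (SE 0.12, adjusted p = 0.219) in spleen and −0.25 (SE 0.19, adjusted p = 0.586) in mLN. The ratio of the kinase sum to Pdp1, both per kilobase, was 5.15 ± 0.97 in WT and 5.48 ± 0.38 in KO spleen, and 6.84 ± 1.25 in WT and 8.44 ± 2.02 in KO mLN. This ratio leaves out the other phosphatase, Pdp2. Its level was 6.50 ± 1.10 CPM per kilobase in WT and 6.77 ± 0.39 in KO spleen, and 5.80 ± 0.63 in WT and 5.80 ± 1.21 in KO mLN.

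Pdha1 and Pdhb encode the alpha and beta subunits of the decarboxylase that opens the reaction. Pdha1 (chrX:160122209-160138413) ranged over the 15 samples from 151.3 to 192 CPM and Pdhb (chr14:8165996-8173025) from 139.6 to 178 CPM, and both had KO and WT ranges that overlapped in each organ. The 95% interval of the log2 fold change of KO against WT was −0.17 to 0.13 in spleen and −0.28 to 0.09 in mLN for Pdha1, and −0.12 to 0.18 in spleen and −0.22 to 0.15 in mLN for Pdhb. Pdhb was 160.5, 157, 158 and 139.6 CPM in WT spleen and 177, 174 and 169 CPM in WT mLN. These groups did not overlap, nor did those of Pdha1 (at most 179 CPM in WT spleen and at least 180.3 CPM in WT mLN), as for 31.5% of all genes tested. The log2 fold change of mLN against spleen in WT was 0.21 (SE 0.08) for Pdhb and 0.19 (SE 0.08) for Pdha1, and neither passed (adjusted p = 0.0999 and 0.107 by edgeR). With the replicate number as a block Pdhb passed in WT (log2 fold change 0.24, adjusted p = 0.028). Pdha1 shares 603 exon bases with Map3k15 on the opposite strand, and the strand setting of the counts is not given in the sources used here. Reads ambiguous between genes (0.752% to 0.987% of the uniquely aligned reads of a sample) were kept out of the gene counts. The effect of the shared bases on the Pdha1 counts was not tested.

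Dlat encodes the dihydrolipoamide acetyltransferase that forms the core of the complex and carries its lipoyl groups (chr9:50634633-50659780). The Dlat level was 74.6, 83.3, 73.5 and 67.2 CPM in WT spleen, 78.5, 73.6, 66.8 and 69.7 CPM in KO spleen and 67.2, 66.4 and 70.2 CPM in WT mLN. In KO mLN it was 53.9, 58.6, 53.1 and 52.4 CPM, and all 4 samples lay below the other 11, as for 1.37% of the 15438 genes tested over all samples. As for Pdk3, this split was not planned and the share is a description only. Dlat was lower in KO mLN than in KO spleen (log2 fold change −0.40, SE 0.08, adjusted p = 0.00388 by edgeR), a decrease of 24.3%. The call was kept in 8 of 8 fits that left out 1 sample and under every alternative without a minimum fold, the weakest being the fit without the libraries with the most genes read (adjusted p = 0.043).

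Against WT mLN, which shares the KO mLN samples with the comparison above, the log2 fold change of Dlat was −0.33 (SE 0.10, adjusted p = 0.154), and it passed only where all 15 samples shared 1 fit (adjusted p = 0.0426 by edgeR). In spleen KO and WT gave −0.04 (95% interval −0.21 to 0.14), and in WT the organs gave −0.10 (−0.30 to 0.11). The interaction term was −0.30 on the log2 scale (SE 0.11, adjusted p = 0.9998 by edgeR), so a difference between organs in the KO effect was not shown over all genes. Over the 15 samples Dlat and Pdk3 had the most negative correlation of any pair of the tested genes (Pearson r = −0.76), which fell to −0.06 after removal of the group means.

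Mpc1 and Mpc2 form the carrier of the inner mitochondrial membrane together. Mpc1 (chr17:8282904-8297661) was 33.7 ± 4.70 CPM in WT and 29.1 ± 0.90 CPM in KO spleen (SD, n = 4 each), and 37.2 ± 3.93 CPM in WT (n = 3) and 32.8 ± 4.42 CPM in KO mLN (n = 4). Mpc2 (chr1:165460637-165481214) was 66.5 ± 6.56 and 67.7 ± 2.81 CPM in WT and KO spleen, and 74.5 ± 2.98 and 76.6 ± 3.76 CPM in WT and KO mLN. The ranges of KO and WT overlapped for both in each organ. The log2 fold change of Mpc1 in KO against WT was −0.20 (95% interval −0.41 to 0.02) in spleen and −0.19 (−0.51 to 0.12) in mLN, and that of Mpc2 was 0.04 (−0.13 to 0.21) and 0.03 (−0.18 to 0.24). Among KO samples all 4 mLN values of Mpc2 (71.6 to 80.5 CPM) lay above the spleen values (64.7 to 71.3 CPM), as for 28.7% of all genes tested in this comparison, with a log2 fold change of 0.18 (SE 0.07, adjusted p = 0.0937 by edgeR). Mpc1 shares 480 exon bases with 4930506C21Rik on the opposite strand, which had 2213 counts over all samples against 5134 for Mpc1.

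**Figure D3:**
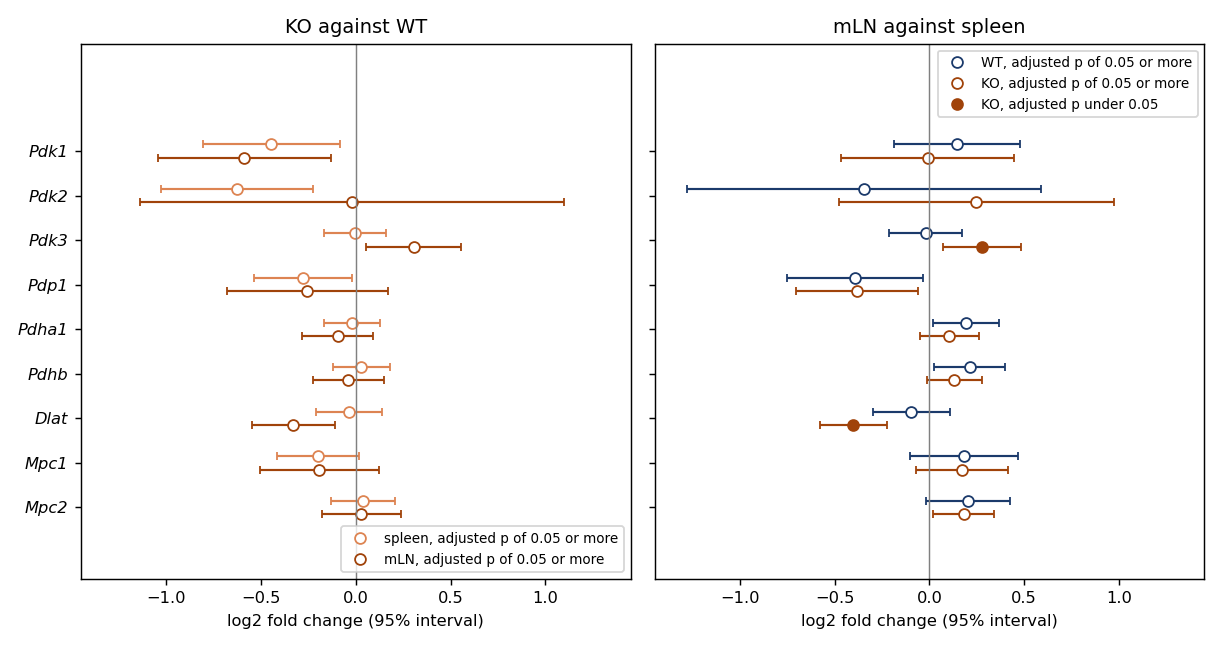
Log2 fold changes of the 9 tested genes with 95% intervals, KO against WT in each organ on the left and mLN against spleen in each genotype on the right. Filled points have an adjusted p-value under 0.05. Only Pdk3 and Dlat in KO mLN against KO spleen are filled.

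Counted over the 9 tested genes, 0 passed for KO against WT in spleen, where 1.3% of 14254 genes passed, and 3 had an unadjusted p under 0.05 (Pdk1, Pdk2 and Pdp1), as 20.5% of all genes did. For KO against WT in mLN 0 of 9 passed against a background of 0.641% of 14359 genes, with 3 at an unadjusted p under 0.05 (Pdk1, Pdk3 and Dlat) against 15.7%. DESeq2 called 0 of 9 in both organs. Between the organs 0 of 9 passed in WT by edgeR, where 20.5% of 14515 genes passed. In KO 2 of 9 passed by edgeR, where 25.3% of 14240 genes passed, 11.4% higher and 13.9% lower in mLN. With the replicate number as a block, 2 of 9 passed in WT and 1 of 9 in KO. The median log2 fold change of the 9 genes in KO against WT was −0.04 in spleen and −0.10 in mLN, beside −0.004 over all genes in both. For mLN against spleen it was 0.15 in WT and 0.13 in KO, beside 0.00 and 0.01 over all genes.

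Markers of other cells moved with the organ and, for a few genes, with the genotype. The 5 neutrophil markers summed to 123 to 464 CPM in the spleen samples and 16.5 to 61.0 CPM in the mLN samples. All 4 that were tested (Elane, Mpo, S100a8 and S100a9) were lower in mLN in both genotypes, where 10.8% of all genes were called lower in WT and 13.9% in KO. The 6 macrophage or monocyte markers ranged from 115 to 325 CPM in spleen and from 48.0 to 201 CPM in mLN, and Adgre1, Csf1r, Fcgr1 and Lyz2 were lower in mLN in KO. Cd68 was not called in KO (log2 fold change −0.14). In WT 0 of the 6 were called, and Cd68 had a positive value (0.29). The CD8 markers Cd8a and Cd8b1 summed to 18.9 to 28.2 CPM in KO mLN and to at most 11.6 CPM in any other group, and Cd8a was called higher in KO mLN than in KO spleen. The 4 plasma cell markers summed to 476 to 792 CPM in mLN and 282 to 436 CPM in spleen. Nearly all of this came from Xbp1 (group means of 242 to 285 CPM, not called between the organs) and Ighm (higher in mLN in both genotypes), while Jchain had at most 6 counts and Sdc1 at most 13 in a sample.

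The 5 B cell markers summed to at most 8.82 CPM. Ms4a1 was at 0 in every mLN sample, whereas Pax5 had 18 to 48 counts in KO mLN, 3 to 18 in KO spleen and 0 to 2 in WT mLN. Pax5 was called higher in KO mLN than in WT mLN (adjusted p = 0.037 by edgeR), where 0.641% of all genes were called. It was also called higher than in KO spleen (adjusted p = 0.0325), where 11.4% of all genes were called higher. Cd79b, the other B cell marker tested, was called in neither comparison, with log2 fold changes of −0.71 and 0.92. The 8 stromal or endothelial markers reached 136 CPM, mostly from Pecam1 (group means of 78.7 to 115.8 CPM). Of the 4 tested in mLN, the smooth muscle genes Acta2 and Myh11 were higher in KO than in WT, with 37 to 84 against 7 to 9 counts for Acta2 and 32 to 95 against 0 to 4 counts for Myh11 (adjusted p = 0.0326 for both by edgeR), where 0.641% of all genes were called. The other 2 of these 4, Col1a1 (log2 fold change 0.52) and Pecam1 (−0.19), were not called. In spleen Acta2 had 15 to 31 counts in KO and 7 in each WT sample (adjusted p = 0.0448 by edgeR), where 1.3% of all genes were called. The other 2 tested there had negative log2 fold changes and were not called (Col1a1 −0.95, adjusted p = 0.114, and Pecam1 −0.32, adjusted p = 0.121, by edgeR). Acta2, Myh11 and Pecam1 were also higher in KO mLN than in KO spleen, where Col1a1 (−0.46) and Cdh5 (−0.98) were negative and not called. Col1a1 was lower in WT mLN than in WT spleen. Dendritic cell markers reached at most 46.0 CPM (in KO, Itgax and Siglech higher and Xcr1 lower in mLN), NK cell markers 13.5 CPM and platelet markers 5.55 CPM (Itga2b lower in mLN in WT). Of the T cell markers Cd3d and Trbc2 were higher in mLN in both genotypes, and in KO Cd28, Trac and Trbc1 were higher and Cd3e lower. The part of these markers in the values of Dlat, Pdk3 and Pdp1, including those in KO mLN, was not tested.

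Of the 4 tested genes in the rest of the complex, 2 were called between the organs in WT and 1 in KO, where 20.5% and 25.3% of all genes were called. Pdpr, the regulatory partner that restrains Pdp1, was lower in mLN than in spleen in WT (40.2 ± 3.85 CPM in spleen and 24.7 ± 2.97 CPM in mLN, log2 fold change −0.66, adjusted p = 0.00534) and in KO (35.5 ± 6.76 and 21.7 ± 2.59 CPM, −0.71, adjusted p = 0.00445). Dld, the dihydrolipoamide dehydrogenase shared with the other 2-oxo acid dehydrogenases, was higher in mLN in WT (0.27, adjusted p = 0.036), and its log2 fold change in KO was 0.20 (adjusted p = 0.117). None of Pdhx, Dld, Pdp2 and Pdpr passed for KO against WT by edgeR, where 1.3% of all genes were called in spleen and 0.641% in mLN. The testis form Pdha2 had no read in any sample, and Mpc1l was not among the genes of the files. Lias, the enzyme that makes the lipoyl group carried by Dlat, was higher in mLN in WT (0.57, adjusted p = 0.00376) and in KO (0.54, adjusted p = 0.00376), while Lipt1 and Lipt2 did not pass. In KO against WT the log2 fold change of Lias was −0.37 in spleen (adjusted p = 0.070) and −0.38 in mLN (adjusted p = 0.166).

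Of 14 tricarboxylic acid cycle genes, 7 were higher in mLN than in spleen in WT (Idh3g, Idh2, Sdhc, Suclg1, Sdhd, Idh3b and Mdh2), where 9.7% of all genes were called higher. In KO 6 of the 14 were higher, all 6 shared with WT and Idh2 not among them, against 11.4% of all genes, and none of the 14 was called lower in either genotype. The log2 fold changes of the called genes ranged from 0.28 to 0.88 in WT and from 0.22 to 0.88 in KO. Idh3g, a subunit of the NAD-dependent isocitrate dehydrogenase, rose most of these, from 93.2 ± 3.13 to 167 ± 14.0 CPM in WT and from 84.3 ± 4.28 to 154 ± 14.2 CPM in KO. In both genotypes 14 of 14 cycle genes had a positive log2 fold change, and so had Pdha1, Pdhb, Dld, Pdhx, Mpc1 and Mpc2, whereas that of Dlat was negative. For KO against WT 0 of 14 cycle genes passed in either organ, with the smallest p-values in spleen for Idh3g (log2 fold change −0.13, adjusted p = 0.257) and Sdha (−0.14, 0.268), and in mLN for Idh2 (−0.48, 0.152) and Suclg1 (−0.12, 0.607).

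**Figure D4:**
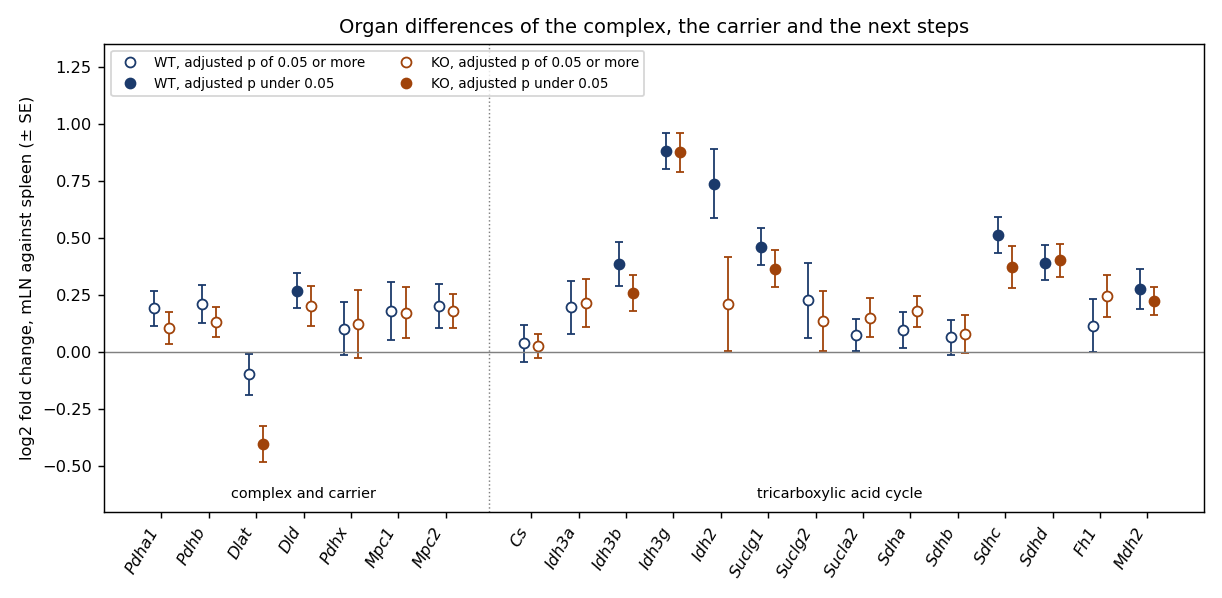
Log2 fold change of mLN against spleen with its SE for genes of the complex, the carrier and the tricarboxylic acid cycle, in WT and KO. Filled points have an adjusted p-value under 0.05. All 14 cycle genes plotted lie above 0 in both genotypes, and Dlat lies below 0.

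Among the related 2-oxo acid dehydrogenases, Bckdk, the kinase that switches off the branched-chain complex and a relative of the Pdk genes, fell in KO spleen from 71.2 ± 3.58 CPM in WT to 49.4 ± 7.91 CPM (log2 fold change −0.52, SE 0.10, adjusted p = 0.0444 by edgeR). In mLN its value was −0.37 (SE 0.12, adjusted p = 0.187). It was the only 1 of 7 tested genes of this list that passed in spleen, where 1.3% of all genes did, and 0 of 7 passed in mLN, where 0.641% did. Bckdha was higher in mLN than in spleen in WT (0.52, adjusted p = 0.020), and Ppm1k, the phosphatase of the branched-chain complex, was lower in KO (−0.44, adjusted p = 0.0116). Each was the only 1 of 7 tested genes called there, where 20.5% of all genes were called in WT and 25.3% in KO.

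Of the genes that make, use or carry pyruvate, 0 of 12 tested in spleen and 0 of 11 tested in mLN passed for KO against WT, with the smallest p-values for Pklr and Slc16a1 in spleen and Ldhb and Slc16a3 in mLN. Ldha, the lactate dehydrogenase subunit that turns pyruvate into lactate, was higher in mLN than in spleen in WT (0.67, adjusted p = 0.0037), and in KO its log2 fold change was 0.39 (adjusted p = 0.0609). Slc16a1, a lactate and pyruvate transporter, was higher in mLN in KO (0.43, adjusted p = 0.0101). Pcx, the pyruvate carboxylase, was lower in WT mLN (−1.04, adjusted p = 0.0488). Pklr, a pyruvate kinase gene of liver and red cells, had 11 to 24 counts in WT spleen and 0 in each WT mLN sample and was called lower there. Between the organs 3 of 12 tested genes were called in WT and 1 of 11 in KO. Over all genes the shares were 20.5% and 25.3%.

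Among the transcription factors and coactivators known for acting on Pdk genes, Myc fell in KO spleen from 99.99 ± 27.4 CPM in WT to 50.2 ± 11.8 CPM (log2 fold change −0.98, SE 0.20, adjusted p = 0.0453 by edgeR). In mLN Myc stood at 184 ± 50.2 CPM in WT and 98.7 ± 22.3 CPM in KO (−0.91, SE 0.20, adjusted p = 0.077). Of the 9 genes tested in spleen Myc alone passed, against 1.3% of all genes, and of the 8 tested in mLN 0 passed, with Myc and Foxo3 (0.57, adjusted p = 0.245) at the smallest p-values. For mLN against spleen 3 of 8 tested genes passed in WT and 4 of 9 in KO. Over all genes 20.5% and 25.3% passed. Between the organs Myc was higher in mLN in both genotypes (0.92 in WT and 0.98 in KO), and Foxo3 (−0.95 and −0.76) and Ppard (−1.12 and −1.30) were lower in both. Ppargc1b was called lower in mLN in KO (−0.65, adjusted p = 0.0305), and its value in WT was −0.40 (adjusted p = 0.251). Ppara had at most 2 counts in a sample.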

How the data were processed

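RNA of sorted CD4+ T cells was sequenced as single-end reads in 15 samples (4 WT spleen, 4 KO spleen, 3 WT mLN, 4 KO mLN). Per the study's methods and the submitters' processing notes, the authors demultiplexed with bcl2fastq 2.19.1.403, aligned to GRCm38 with STAR 2.6.1a and GENCODE annotation, and deposited raw counts of reads per gene, not normalized; RSEM and DESeq2 1.22.2 are also named. The strand setting is not given in the sources used here. Reads that align to several places were not counted, which lowers genes with near-identical copies.

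Symbols, positions and exon lengths came from another GENCODE release on GRCm38, in which 55240 of 55421 genes were found. CPM is a count divided by the sample's sum over genes. Reads on genes ranged from 9363940 to 11283439, and a floor of 3 counts was used, which covers counting error only, as reads carry no molecular identifiers. The 95% intervals of log2 fold changes come from the SE of edgeR's fit and so cover the spread between samples. Promoter windows came from RefSeq (GRCm38.p6).

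Counts of all genes were tested with edgeR 4.0.16 (R 4.3.3; low-count filter, TMM, quasi-likelihood test, two-sided), separately for KO against WT in each organ and mLN against spleen in each genotype, and over all 15 samples for the interaction. P-values were adjusted by Benjamini-Hochberg over all genes tested, with a limit of 0.05. The procedure was run on simulated counts with the same spread for every gene, and its power for the changes reported here is not taken from them. Alternatives were DESeq2 1.42.0, RLE or library size scaling, other filters, 1 fit of all samples, the replicate block, a fold limit of 1 on the log2 scale, and each sample left out. Leaving out libraries with over 24000 genes read or erythroid markers above 500 CPM, and transcript lengths, were added after seeing the data. The split of KO mLN from all other samples was also not among the planned comparisons.

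Named are the 10 genes, Prkaa1, the genes called in each other list or, in most pathway lists with none called, those with the smallest p-value, and the 5 genes most like Pdk1, the gene with the largest mean absolute log2 fold change between KO and WT. The genes and lists were chosen with earlier results of these data known. Some genes of these lists are not reported here. Same-numbered spleen and mLN samples deviated together in WT (r = 0.243 to 0.291 over 3 pairs) but not in every KO pair (0.0258 to 0.260), and the labels do not say that they share a mouse; the blocked value is given where it changed a call. Figures were drawn with matplotlib 3.10.9 in Python 3.11.15.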

Additional observations from a re-analysis of the deposited data

Results flagged for a closer look

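Of 51 groups of 4 samples that were checked for a sample far from the others, 3 held one, and chance alone flags about 1 in 20 groups. The kinase sum per kilobase was 26.9 CPM per kilobase in KO mLN replicate 3, below the other 3 samples at 33.5 to 34.1. The sum of Pdha1, Pdhb and Dlat was 104 CPM per kilobase in WT spleen replicate 2, above the others at 97.7 to 98.3. The ratio of the kinase sum to Pdp1 was 6.60 in WT spleen replicate 3, above the others at 4.55 to 4.80. KO mLN replicate 3 and WT spleen replicate 2 are among the libraries with the most genes read, and WT spleen replicate 3 had the highest erythroid markers, and their part in these values was not tested.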

How the results depend on the processing

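The number of the 9 tested genes called changed as follows. Without the low-count filter it was 1 for KO against WT in spleen and 1 in mLN (Pdk1 in both), and 1 for mLN against spleen in KO. With all 15 samples in 1 fit it was 1 for KO against WT in mLN and 1 for mLN against spleen in WT (log2 fold change of Pdhb 0.22, adjusted p = 0.0414). With the replicate block it was 2 for mLN against spleen in WT and 1 in KO, and the block changed no other call of these genes. In KO mLN against spleen it was 0 with a fold limit, 1 without the libraries with the most genes read, and 1 to 2 when each sample was left out. Dlat was called in each of these KO fits except with the fold limit. The causes were not tested.

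Over all genes, 185 were called for KO against WT in spleen and 92 in mLN, against 823 and 590 by DESeq2, 1422 and 913 without the filter, 85 and 500 in 1 fit of all samples, and 17 and 1 with the block, under which same-numbered WT and KO samples did not deviate together (r = −0.210 to 0.146). The interaction gave 0 genes, and 4 by DESeq2, 112 without the filter and 3 with the block.

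Changes of sign were found where the log2 fold change was not called. For KO against WT in spleen Pdk3 was 0.0133 without the filter, 0.0234 without the libraries with the most genes read and 0.003 without those with erythroid markers. Mpc2 was −0.0122 without the former libraries, and Pdha1 was 0.002 and Pdhb −0.0054 without the latter. In mLN Pdk2 was 0.0791 with the block, 0.0243 and 0.54 without the respective libraries, and Pdhb 0.0305 without those with the most genes read. For mLN against spleen Pdk3 in WT was 0.013 with the block, and Pdk1 in KO was 0.0124 in 1 fit of all samples and 0.25 without the libraries with the most genes read. In the interaction Mpc2 was 0.016 with library sizes alone, 0.0081 with the block and 0.0571 without the libraries with the most genes read, where Pdk1 was 0.0552 and Pdp1 −0.15. Mpc1 was −0.0128 without the filter and Pdp1 −0.0162 without the erythroid libraries.

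Leaving out 1 sample turned the sign within these ranges. For KO against WT in spleen they were Dlat −0.087 to 0.0116, Mpc2 −0.0132 to 0.0828, Pdha1 −0.0486 to 0.0131, Pdhb −0.0187 to 0.0543 and Pdk3 −0.0328 to 0.0387. In mLN they were Mpc2 −0.0115 to 0.0625, Pdhb −0.0712 to 0.0002 and Pdk2 −0.43 to 0.54. For mLN against spleen they were Pdk1 −0.15 to 0.17 and Pdk2 −0.0464 to 0.48 in KO, and Pdk2 −0.91 to 0.0606 and Pdk3 −0.0631 to 0.0138 in WT. In the interaction they were Mpc1 −0.0897 to 0.0727, Mpc2 −0.0606 to 0.0374, Pdk1 −0.30 to 0.035 and Pdp1 −0.10 to 0.13.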
